A study of Mus musculus with 4 samples.

Results

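Pancreatic polypeptide cells (PP-cells) were picked from single-cell RNA sequencing of mouse islets by their hormone transcript. A barcode was called a PP-cell when Ppy gave at least 1% of its unique molecular identifiers (UMIs, each standing for 1 captured transcript), when Ppy exceeded both Gcg and Sst, and when Ins1 and Ins2 together stayed below 2%. By this rule 236 of 7471 kept cells were PP-cells, or 3.16% (95% exact binomial interval 2.77 to 3.58%). Kept cells, out of 12571 barcodes, had from 200 up to 4000 genes with a UMI, and mitochondrial transcripts were no more than 12% of their UMIs.

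Islets of C57BL/6 mice (the substrain C57BL6/J in the study's methods) were pooled, divided among the treatments and treated outside the animal for 6 h. They were then dispersed and loaded as 1 droplet library per condition: untreated, IL-1β, IFN-γ, or IL-1β together with IFN-γ. The mice were adult males, and all 4 libraries came from the same pool of islets. The 4 libraries held 50731370, 20056630, 31209339 and 25716645 UMIs over all deposited barcodes, with the untreated library first, then IL-1β, then IFN-γ and the combination last, which is the order of every run of 4 values below unless classes are named. They gave 36, 46, 84 and 70 PP-cells, with median depths of 11385, 6387.5, 8986.5 and 9152 UMIs per cell and 441928, 328577, 731047 and 642074 UMIs in all. The IL-1β library was the shallowest per cell, and 3 UMIs in it amounted to 9.13 CPM (UMIs of a gene among 1000000 UMIs) against 6.79, 4.10 and 4.67 CPM in the untreated, IFN-γ and both-cytokine libraries. With 1 library per condition there is no replicate of a treatment. Levels are therefore given as CPM of the summed UMIs of the PP-cells, and ratios carry a 95% exact interval that covers counting error only. These intervals are too narrow wherever a few cells hold most of a gene's transcripts. No barcode of a PP-cell occurred in more than 1 library.

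PP-cells, also called γ-cells, are the islet endocrine cells that secrete pancreatic polypeptide, a member of the neuropeptide Y family that acts on the gut and on appetite through the Y4 receptor. They are a minor islet population, richest in the part of the pancreas near the duodenum. IL-1β binds IL1R1 and releases NF-κB from its inhibitor, which turns on chemokines, acute-phase genes and, in rodent β-cells, the inducible nitric oxide synthase Nos2. IFN-γ signals through JAK kinases and STAT dimers, and then through IRF1, to the guanylate-binding proteins, immunity-related GTPases and the antigen presentation pathway.

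Ppy (ENSMUSG00000017316) lies on mouse chromosome 11 at chr11:102099930-102101319 on the minus strand of GRCm38. Its relative Pyy (ENSMUSG00000017311), which encodes peptide YY, lies on the same strand at chr11:102106676-102107832, with 5356 bases between both genes. Ppy chose the cells, so its level is a description: the median PP-cell devoted 23.9, 18, 23.7 and 28.8% of its UMIs to Ppy, with single cells between 1.07 and 62.5%. The 3 lowest PP-cells had 1.07, 1.16 and 1.70% Ppy, while the highest kept cells under the limit, with Ppy above Gcg and Sst, had 0.902, 0.871 and 0.861%. A further 465 kept cells had at least 1% Ppy but had more Gcg or Sst. Many of these were δ-cells: the median δ-cell carried 1.80% Ppy, and 338 of 500 δ-cells (67.6%) reached 1%, against 13.5% of α-cells, whose median was 0.0260%.

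PP-cells formed 2.37, 2.28, 3.96 and 3.87% of the kept cells. The intervals of the untreated (1.66 to 3.26%) and both-cytokine libraries (3.03 to 4.86%) overlapped, and those of the IL-1β (1.67 to 3.03%) and IFN-γ libraries (3.17 to 4.88%) did not. As a share of the α-, δ- and PP-cells together they made up 19.4, 8.10, 14.9 and 19.6%. How many cells of each type were captured from a library cannot be told apart from its treatment here.

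The rule let in cells with a second hormone. Of the 236 PP-cells, 53 (22.5%) had Sst at 0.5% or more of their UMIs, numbering 8, 9, 17 and 19 in the 4 libraries. Another 37 (15.7%) had Gcg at 0.5% or more, numbering 4, 10, 16 and 7. No cell had both, and 146 (61.9%) had neither. The Sst-bearing cells stood apart from the rest: their median Ppy was 5.19% against 27.8% in the 183 others, and only 3 PP-cells had Sst between 0.1 and 0.5%. They also held every Hhex transcript found in PP-cells. Hhex is the transcription factor that maintains δ-cell identity, and it reached 126 CPM in the Sst-bearing cells against 0 UMIs in the others. Ttr, the transthyretin gene, stood at 142 CPM in the Sst-bearing cells against 962 CPM in the others, with 38.7 CPM in δ-cells and 6596 CPM in α-cells. The retinol carrier Rbp4 stood at 2943 against 285 CPM, but it was high in both δ-cells (3844 CPM) and α-cells (1795 CPM). On Hhex and Ttr the 53 cells resembled δ-cells more than the other PP-cells, so the main counts below are also given for the 183 PP-cells with Sst under 0.5%, a limit set after the values were seen. Ttr was at 2242 CPM in the Gcg-bearing cells against 594 CPM in the cells with neither hormone.

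**Figure D1:**
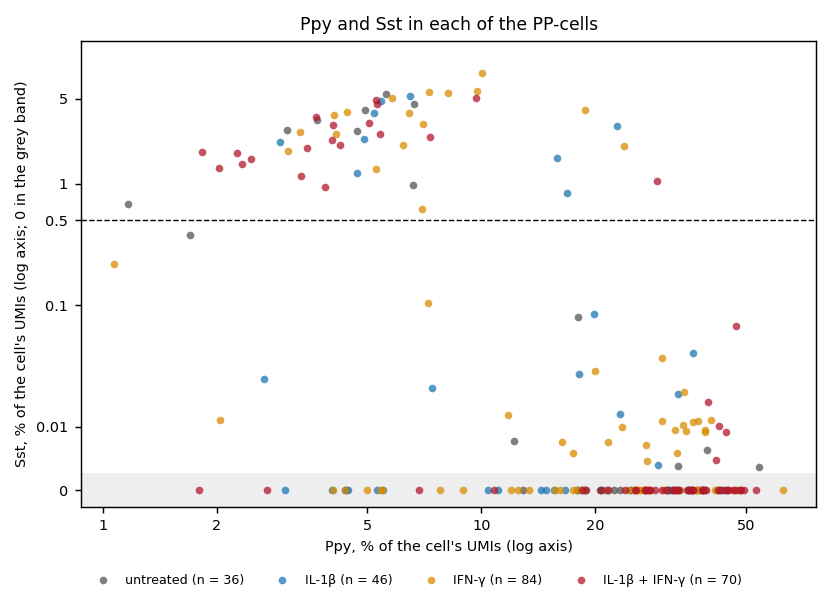
Each point is 1 of the 236 PP-cells, with Ppy as percent of its UMIs on the x axis and Sst as percent of its UMIs on the y axis, coloured by library, both axes on a log scale, with cells without Sst in the grey band and a dashed line at 0.5%. The 53 cells above 0.5% Sst form a separate cloud at lower Ppy, with a median of 5.19%, and all 4 libraries contribute to it.

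Other cell types left little trace in the PP-cells. The endothelial markers Pecam1, Cdh5, Kdr, Cd34 and Plvap summed to 0, 6.09, 5.47 and 6.23 CPM, and all 5 had no UMI in the untreated library. Of the 7 macrophage markers, C1qa was the most abundant at 56.6, 12.2, 13.7 and 21.8 CPM, while Ptprc and Adgre1 had no UMI in any library. The 5 acinar markers summed to 249, 9.13, 58.8 and 77.9 CPM, so exocrine RNA was highest in the untreated library, and its part in the ratios to untreated was not tested. The ductal marker Krt7 stood at 127, 107, 115 and 76.3 CPM and was as high in untreated α-cells, at 147 CPM. Insulin RNA differed between libraries more than between these classes. Ins2 stood at 3609, 1153, 1729 and 1128 CPM in PP-cells, at 4042, 844, 1653 and 1053 CPM in α-cells and at 3959, 925, 1567 and 1331 CPM in δ-cells. Gcg in PP-cells was highest in the IL-1β library, at 3268, 26916, 9581 and 8929 CPM, where Gcg-bearing cells were also the largest share of PP-cells at 21.7%.

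The label was checked against its markers Ppy, Pyy, Tspan8, Vsig1, Etv1 and Abcc9. Pyy was the clearest. It stood at 115141, 44738, 90349 and 61608 CPM in PP-cells, above δ-cells in every library (62490, 35105, 61372 and 37484 CPM) and far above α-cells (14929, 12115, 15897 and 16033 CPM). In β-cells it did not exceed 321 CPM. Tspan8, a tetraspanin, stood at 534, 727, 791 and 595 CPM in PP-cells, which was close to its level in δ-cells (617, 940, 540 and 489 CPM) and above that in α-cells (73.8, 153, 84.4 and 134 CPM). Etv1, a transcription factor of the ETS family, did not single out PP-cells: it stood at 249, 137, 291 and 63.9 CPM there and at 337, 268, 469 and 163 CPM in α-cells. Vsig1, an adhesion molecule, had only 2, 1, 5 and 2 UMIs in PP-cells, yet no UMI in any α- or δ-cell. Abcc9, a subunit of ATP-sensitive potassium channels, had no UMI in PP-cells of any library. Ppy chose the cells and is no check of them. Of the 5 other markers, Pyy was thus highest in PP-cells in every library, Tspan8 separated PP-cells from α-cells but hardly from δ-cells, and Vsig1 was too sparse to use.

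To ask which genes set PP-cells apart, their summed UMIs were compared with those of 940 α-cells, 500 δ-cells and 4556 β-cells, taken by the same kind of hormone rule. The test was edgeR's quasi-likelihood test with library as a block, so each class entered as 4 sums, 1 per library. Its p-values measure how evenly a difference held across 4 libraries that also differed in treatment. Against α-cells, 305 of 7452 genes tested were higher in PP-cells (4.09%) and 318 lower (4.27%) at a Benjamini-Hochberg adjusted p below 0.05. Against δ-cells 291 of 6888 genes were higher (4.22%) and 375 lower (5.44%), and against β-cells 1223 of 10825 were higher (11.3%) and 1584 lower (14.6%). Without the library block only 12 and 10 genes passed against α-cells, 31 and 44 against δ-cells, and 441 and 445 against β-cells. Without the IFN-γ library, which held the most PP-cells, 126 genes were higher and 137 lower than in α-cells, and 161 higher and 220 lower than in δ-cells. Among the genes tested in all 3 comparisons, 33 of 6710 (0.492%) were higher in PP-cells than in each other class, and 6 (0.0894%) were lower. For PP-cells with Sst under 0.5% these numbers were 47 (0.775%) and 18 (0.297%) of 6068 genes.

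Ranked by the smallest of the 3 differences, 12 higher genes were named, with surface and secreted proteins among them. All 12 were also higher than each class for PP-cells with Sst under 0.5%, 8 of them were with DESeq2, 9 to 12 were with any 1 library left out, and 0 were without the library block. Folr1, the folate receptor at chr7:101858331-101870788, stood at 204, 91.3, 216 and 157 CPM in PP-cells. α-cells had 44.9, 20.5, 24.5 and 27.1 CPM, δ-cells 110, 70.3, 86.9 and 76 CPM, and β-cells at most 13.8 CPM, so PP-cells were highest in all 4 libraries. The log2 difference was 2.84 ± 0.17 (SE, 4 libraries) from α-cells (edgeR adjusted p = 7.9e-10), 1.35 ± 0.14 from δ-cells (adjusted p = 2e-07) and 3.81 ± 0.15 from β-cells (adjusted p = 1.2e-15).

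Cd9, a tetraspanin at chr6:125460266-125494791, had 118, 393, 142 and 232 CPM in PP-cells, and in all 4 libraries it was above α-cells (41.7, 268, 50.6 and 116 CPM), δ-cells (7.83, 72.8, 13.3 and 41.6 CPM) and β-cells (2.83, 38.7, 3.67 and 17.6 CPM). Its highest level in each class was that of the IL-1β library. Pyy itself differed by 2.58 ± 0.14 from α-cells, 0.99 ± 0.08 from δ-cells and 8.0 ± 0.13 from β-cells on the log2 scale.

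The other 8 higher genes named by the rank were less abundant or depended on treatment. Snhg18, a noncoding host gene, kept an even level of 36.2, 42.6, 36.9 and 28 CPM, and was higher by 1.73 to 2.13 on the log2 scale than in each other class. Hspb8, a small heat shock protein, stood at 24.9, 30.4, 16.4 and 23.4 CPM. Cfi, the complement factor I protease, stood at 24.9, 30.4, 54.7 and 26.5 CPM and was 0.99 ± 0.23 above α-cells and 7.99 ± 0.45 above β-cells. Another pair of genes, in contrast, was low without cytokine, so their difference between classes rests on treated libraries: Lrg1, an acute-phase glycoprotein, had 0, 256, 8.21 and 143 CPM, with 54 of its 92 UMIs under both cytokines from 1 cell, and the chemokine Cxcl2 had 2.26, 487, 10.9 and 1476 CPM. 8430408G22Rik was likewise highest with IL-1β present, at 83.7, 231, 27.4 and 533 CPM, and Dnm3 and Pid1 completed the list.

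Lower than in every other class were Ttyh1, Mrln, Lrrc10b, Vwa5b2, Mrpl57 and Scg3, of which 4 were also lower for PP-cells with Sst under 0.5%, only Ttyh1 was with DESeq2 or without the IFN-γ library, and 0 were without the library block. Ttyh1, an anion channel protein, stood at 4.53, 6.09, 2.74 and 6.23 CPM in PP-cells and at 35.3, 20.2, 24.5 and 48.2 CPM in α-cells, a log2 difference of -2.53 ± 0.34. Mrln, a small inhibitor of the SERCA calcium pump, stood at 24.9, 12.2, 26 and 3.11 CPM, between 1.14 and 2.44 below the other classes on the log2 scale. Scg3, a granin that sorts hormones into granules, was abundant everywhere and differed by -0.42 ± 0.09 from α-cells, -0.45 ± 0.10 from δ-cells and -0.63 ± 0.11 from β-cells.

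**Figure D2:**
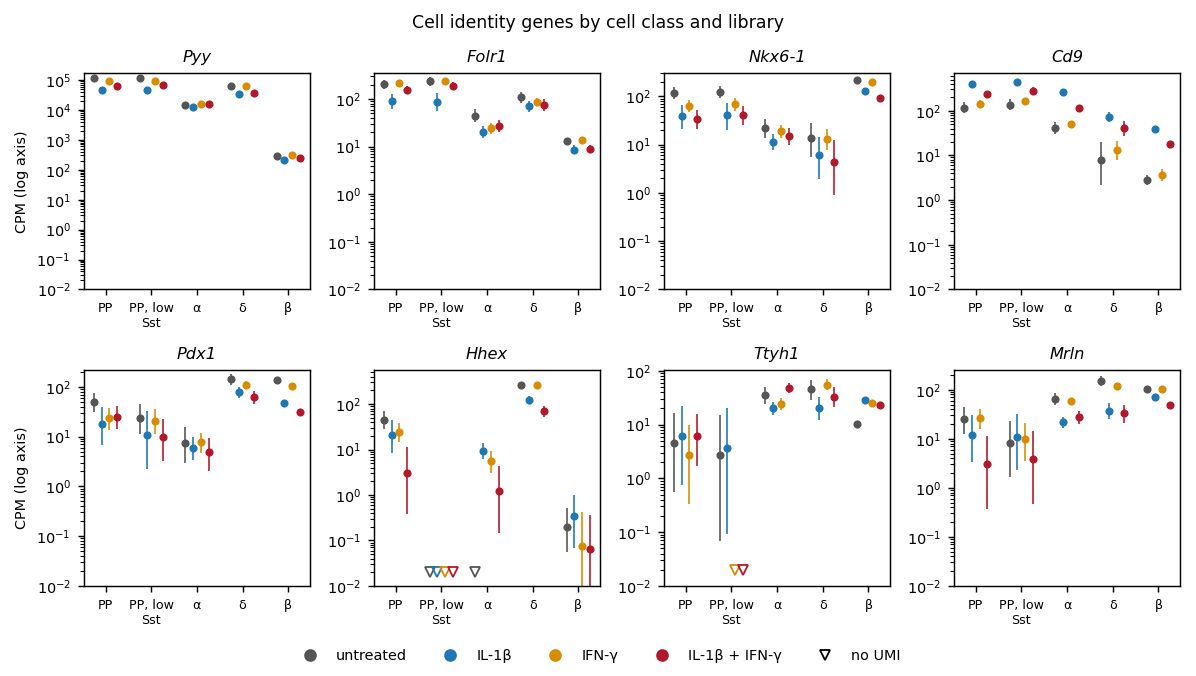
CPM of summed UMIs on a log axis for Pyy, Folr1, Nkx6-1, Cd9, Pdx1, Hhex, Ttyh1 and Mrln in PP-cells, PP-cells with Sst under 0.5%, α-, δ- and β-cells, with 1 point per library, bars for the 95% Poisson interval and open triangles where no UMI was found. Folr1, Cd9 and Pyy are highest in PP-cells in all 4 libraries, Nkx6-1 lies between β-cells and the α- and δ-cells, and Hhex disappears from PP-cells once those with Sst are left out.

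Transcription factors of other islet lineages were present to unequal degrees. The Iroquois factors Irx1 and Irx2, found in α-cells, were lower than there by -2.92 ± 0.32 and -1.75 ± 0.19. Nkx6-1, best known as a β-cell factor, stood at 120, 39.6, 64.3 and 34.3 CPM in PP-cells. This was above α-cells by 2.09 ± 0.22 and above δ-cells by 3.01 ± 0.26, and below β-cells by -1.47 ± 0.15. The subsets shared it, with 40.3 CPM in the Sst-bearing, 48.0 CPM in the Gcg-bearing and 73.4 CPM in the cells with neither. Pdx1, in contrast, was concentrated in the Sst-bearing cells, with 83.3 against 16.9 CPM in the others, near the 96.9 CPM of δ-cells.

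General endocrine genes differed both ways, and were called more often than all genes, which were not matched to them in abundance. Of 17 pan-endocrine transcription factors and granule genes, 16 were tested against α-cells, of which 4 were higher and 4 lower, with a median log2 difference of -0.25, where 4.09 and 4.27% of all genes tested were higher and lower. Against δ-cells 3 of 16 were higher and 7 lower (median -0.19; 4.22 and 5.44% of all genes), and against β-cells 5 of 17 were higher and 8 lower (median -0.13; 11.3 and 14.6% of all genes). Pax6 and Isl1, which every islet endocrine lineage needs, did not pass the test against α- or δ-cells. Neurod1 was below α-cells by -0.61 ± 0.14, which did not pass with DESeq2 (adjusted p = 0.099), and below β-cells by -1.17 ± 0.13. Chgb, a granin, was above α-cells by 1.49 ± 0.10 and below δ-cells by -0.91 ± 0.10. The amylin gene Iapp was above α-cells by 1.30 ± 0.17, and below δ- and β-cells by -1.55 ± 0.09 and -2.74 ± 0.13. Iapp was higher in the Sst-bearing cells, at 24488 CPM against 5109 CPM in the others. Of the neuropeptide Y family only Ppy and Pyy had enough UMIs to test.

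The receptor for IL-1β was present before any treatment. Il1r1 stood at 99.6, 253, 192 and 76.3 CPM in PP-cells, 260, 426, 346 and 223 CPM in α-cells, 88.1, 90.9, 127 and 37.3 CPM in δ-cells and 239, 242, 220 and 88.6 CPM in β-cells. PP-cells were thus below α-cells by -0.83 ± 0.12 (edgeR adjusted p = 0.00011) and above δ-cells by 1.17 ± 0.16 (adjusted p = 6.7e-06). Their difference from β-cells, -0.48 ± 0.16 (adjusted p = 0.03), did not pass for PP-cells with Sst under 0.5% (adjusted p = 0.37) or with DESeq2 (adjusted p = 0.2).

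Each cytokine was then set against the untreated library within PP-cells. A gene entered when its mean over both libraries was at least 50 CPM, and it was called higher or lower when the ratio was past 2-fold. This is a rule of size, not a test. The hormones weigh on these ratios, since the genes Ppy, Pyy, Gcg, Sst, Ins1, Ins2 and Iapp took 42.0, 29.4, 36.0 and 35.9% of all UMIs. IL-1β put 387 of 2441 genes past the fold upward (15.9%) and 96 downward (3.93%). IFN-γ put 118 of 2290 upward (5.15%) and 27 downward (1.18%), and both cytokines together 307 of 2206 upward (13.9%) and 172 downward (7.8%). The median log2 ratio of all genes that entered was 0.31, 0.12 and 0.05, so the IL-1β ratios sat above 1 as a whole. With the 7 hormone genes left out of the totals, the split became 349 up and 332 down for IL-1β, 166 and 107 for IFN-γ, and 404 and 468 for both. That setting lowers the ratios and also lets more genes reach 50 CPM. At the original scaling, among the 2124 genes at 50 CPM in untreated cells, 149 were up and 165 down for IL-1β and 115 and 291 for both, so the balance of up and down depended on which genes entered. For PP-cells with Sst under 0.5% the counts were 440 of 2294 up and 77 down (19.2 and 3.36%), 141 of 2149 up and 32 down (6.56 and 1.49%), and 260 of 1971 up and 157 down (13.2 and 7.97%). Of the genes called in all PP-cells, 333 and 60, 102 and 22, and 236 and 123 were called there too. The 3 treated libraries share the untreated one, so its peculiarities enter every ratio.

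Cxcl1, Cxcl2, Ccl2, Hamp, Steap4, Lrg1 and Cebpd were among the 8 genes leading upward under IL-1β, and the first 6 had at most 1 UMI in untreated PP-cells. Cxcl1, a neutrophil chemokine, stood at 0, 740, 23.3 and 970 CPM and was found in 0, 45.7, 3.57 and 38.6% of PP-cells. Only the libraries with IL-1β were high. With the untreated library set to the 3-UMI floor, the Cxcl1 ratio under IL-1β was 109 (lower bound of the interval 87.9). Its neighbour Cxcl2 stood at 2.26, 487, 10.9 and 1476 CPM, a ratio of 215 (interval 38.1 to 8552) for IL-1β, resting on 1 untreated UMI. Under IL-1β Cxcl2 was found in 28.3% of PP-cells, and 3 cells held 70.6% of its UMIs. Ccl2, which draws monocytes, stood at 0, 262, 23.3 and 824 CPM. At the same floor it was 38.6-fold higher under IL-1β (lower bound 30.7), where 3 cells held 68.6% of its UMIs. Hamp, the iron hormone hepcidin, stood at 0, 682, 1.37 and 452 CPM, and the ferrireductase gene Steap4 at 0, 377, 15 and 232 CPM. At the floor they were 100-fold and 55.6-fold higher under IL-1β (lower bounds 81.0 and 44.5), where 3 cells held 56.3% of the Hamp UMIs. Lrg1, described above, was 37.7-fold higher at the floor (lower bound 30.0). Cebpd, an acute-phase transcription factor, was already present and stood at 52, 1284, 145 and 1319 CPM, a ratio of 24.7 (16.2 to 39.4). Cxcl10 also met the rule under IL-1β at 155 CPM, but 43 of its 51 UMIs (84.3%) came from 1 cell.

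The promoters of Cxcl1 and Cxcl2 are shown because both genes led the IL-1β response and each carries more than 1 κB-type match close to its start. Capitals mark every match to GGGNNNTTCC, a shortened NF-κB site, on either strand; the longer runs of capitals are overlapping matches on both strands. The sequences are from RefSeq, build GRCm38.p6, written 5′ to 3′ in the direction of the gene.
Cxcl1 promoter, chr5:90891140-90891199, plus strand: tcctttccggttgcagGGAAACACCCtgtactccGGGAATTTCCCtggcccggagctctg
Cxcl2 promoter, chr5:90903786-90903845, plus strand: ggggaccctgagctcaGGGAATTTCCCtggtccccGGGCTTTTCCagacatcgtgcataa

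GGGNNNTTCC was found in the 250 bases upstream of the start in 1434 of 27025 mouse genes with a promoter window (5.31%). Of the 8 genes leading upward under IL-1β, 6 had a window in the table and 5 of these held the match. Of the 5 genes leading downward that had a window, 1 held it. A match describes the letters and is not evidence of binding.

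Since a gene low in untreated cells could enter only by being higher, listed genes are counted where they were already at 50 CPM in untreated cells. Of all 2124 such genes 7.02% were higher under IL-1β. Of 12 IL-1 targets 5 were at that level and all 5 were higher: Sod2, Cebpb, Cebpd, Mt1 and Mt2. The share of cells with Mt2 did not rise, at 23 of 46 under IL-1β and 19 of 36 untreated. Under IL-1β 3 cells held 42.6% of the Mt2 UMIs. Sod2, the mitochondrial superoxide dismutase, stood at 120, 737, 131 and 762 CPM, a ratio of 6.14 (4.55 to 8.43). The metallothionein Mt1 stood at 296, 1348, 213 and 681 CPM. Nfkbia, the inhibitor that NF-κB itself switches on, stood at 54.3, 660, 82.1 and 1067 CPM, a ratio of 12.2 (7.96 to 19.4). It was the only one of 8 NF-κB genes listed at 50 CPM in untreated cells. The β-defensin Defb1 stood at 11.3, 417, 73.9 and 537 CPM. Nos2 (chr11:78920787-78960254) stood at 0, 103, 1.37 and 445 CPM and was found in 0, 17.4, 1.19 and 54.3% of PP-cells. It was at least 15.2-fold above untreated under IL-1β. None of the 10 chemokines listed was at 50 CPM in untreated cells, so no such count could be given for them.

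Downward, Wnt4 stood out. This secreted Wnt ligand stood at 407, 42.6, 196 and 43.6 CPM, with ratios to untreated of 0.105 (0.0561 to 0.180) under IL-1β, 0.480 (0.383 to 0.602) under IFN-γ and 0.107 (0.0692 to 0.160) under both. It was past 2-fold under each treatment, and its level under IL-1β alone was near that under both. Hadh, an enzyme of fatty acid oxidation, stood at 122, 15.2, 93 and 10.9 CPM, a ratio of 0.125 (0.0389 to 0.309) under IL-1β. The exocytosis genes Cplx2 and Pclo stood at 186, 39.6, 211 and 56.1 CPM and at 90.5, 15.2, 58.8 and 24.9 CPM. Hist3h2ba and Gmpr stood at 131, 24.3, 72.5 and 14 CPM and at 124, 27.4, 95.8 and 37.4 CPM. All of these named genes were also below untreated in the library with both cytokines. Pyy was at 0.389 of untreated (0.381 to 0.396) under IL-1β and at 0.535 (0.528 to 0.542) with both, while Ppy, used by the rule, stood at 282569, 201657, 246823 and 273786 CPM.

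IFN-γ put fewer genes past the fold than the other treatments did. Of the 2124 genes at 50 CPM in untreated cells, 36 were higher (1.69%) and 48 lower (2.26%), so the upward balance above came from genes low in untreated cells. Iigp1, an immunity-related GTPase that attacks vacuoles of intracellular parasites, stood at 0, 0, 2101 and 843 CPM. With untreated cells set to the 3-UMI floor, it was 310-fold above untreated under IFN-γ (lower bound 251). It had no UMI in either library without IFN-γ. Igtp and Irgm1, of the same family, stood at 2.26, 6.09, 417 and 308 CPM and at 11.3, 21.3, 595 and 466 CPM, with ratios of 184 (32.8 to 7306) and 52.6 (22.4 to 163). The Igtp ratio rested on 1 untreated UMI. Gbp2, a guanylate-binding protein, stood at 2.26, 107, 1007 and 2481 CPM, a ratio of 445 (79.6 to 17597), again on 1 untreated UMI. Gbp3 stood at 2.26, 85.2, 417 and 1068 CPM and Gbp4 at 0, 51.7, 230 and 653 CPM. Under IL-1β alone these 3 stood at 51.7 to 107 CPM, whereas Iigp1, Igtp and Irgm1 did not exceed 21.3 CPM. Ifit1, an antiviral RNA-binding protein, stood at 0, 21.3, 133 and 174 CPM, and the uncharacterised F830016B08Rik at 0, 0, 130 and 73.2 CPM.

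The transcription factor gene Irf1, which acts on these targets, was also higher under IFN-γ. It stood at 24.9, 70, 265 and 682 CPM, a ratio of 10.7 (5.83 to 21.7) under IFN-γ and 27.4 under both. Of the antigen presentation list, 8 of 14 genes were at 50 CPM in untreated PP-cells, and 6 of these were higher under IFN-γ, 5 under IL-1β and 8 under both. Among all genes at that level the shares were 1.69, 7.02 and 5.41%. Psmb8, a subunit of the immunoproteasome, stood at 61.1, 137, 544 and 542 CPM, a ratio of 8.91 (6.03 to 13.7) under IFN-γ. B2m, the light chain of MHC class I, stood at 134, 265, 432 and 903 CPM, and Tap1, the peptide transporter, at 4.53, 6.09, 219 and 287 CPM. The heavy chain H2-K1 had its highest level under IL-1β, at 566, 1400, 964 and 1279 CPM.

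Promoters of 3 genes past the fold under IFN-γ are shown for the letters of STAT and IRF sites. Capitals mark matches to GAAANNGAAA, the core of an interferon-stimulated response element (ISRE), and to TTCNNNGAA, a gamma-activated site (GAS), on either strand.
Igtp promoter, chr11:58199491-58199550, plus strand: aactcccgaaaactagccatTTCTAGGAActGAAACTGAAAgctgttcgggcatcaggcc
Ifit1 promoter, chr19:34640769-34640828, plus strand: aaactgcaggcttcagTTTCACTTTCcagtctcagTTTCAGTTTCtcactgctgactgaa
Irf1 promoter, chr11:53769898-53769957, plus strand: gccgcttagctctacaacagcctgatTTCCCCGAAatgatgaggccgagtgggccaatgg

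Igtp holds both kinds of match, Ifit1 a pair of ISRE cores and Irf1 a GAS match alone in these stretches. In the 250 upstream bases the ISRE core was found in 936 of 27025 genes (3.46%) and the GAS in 2197 (8.13%). Of the 8 genes leading upward under IFN-γ, 5 had a window, all 5 held the ISRE core, 1 held the GAS and none held GGGNNNTTCC. None of the 7 genes leading downward with a window held the ISRE core. Matches of different motifs did not overlap.

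The genes lower under IFN-γ had smaller ratios, and some owed their untreated level to a single cell. Tnfrsf12a stood at 124, 67, 26 and 159 CPM, but 29 of its 55 untreated UMIs came from 1 cell. Snhg11 and Hsph1 likewise had 27 of 37 and 37 of 66 untreated UMIs in 1 cell. Ftl1, the ferritin light chain, was spread over cells and stood at 1724, 956, 855 and 1461 CPM, a ratio of 0.496 (0.445 to 0.552). Fxyd3 stood at 129, 42.6, 47.9 and 46.7 CPM and Sdf2l1 at 95, 51.7, 35.6 and 53 CPM. 8430408G22Rik and Wnt4, described above, completed the 8.

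**Figure D3:**
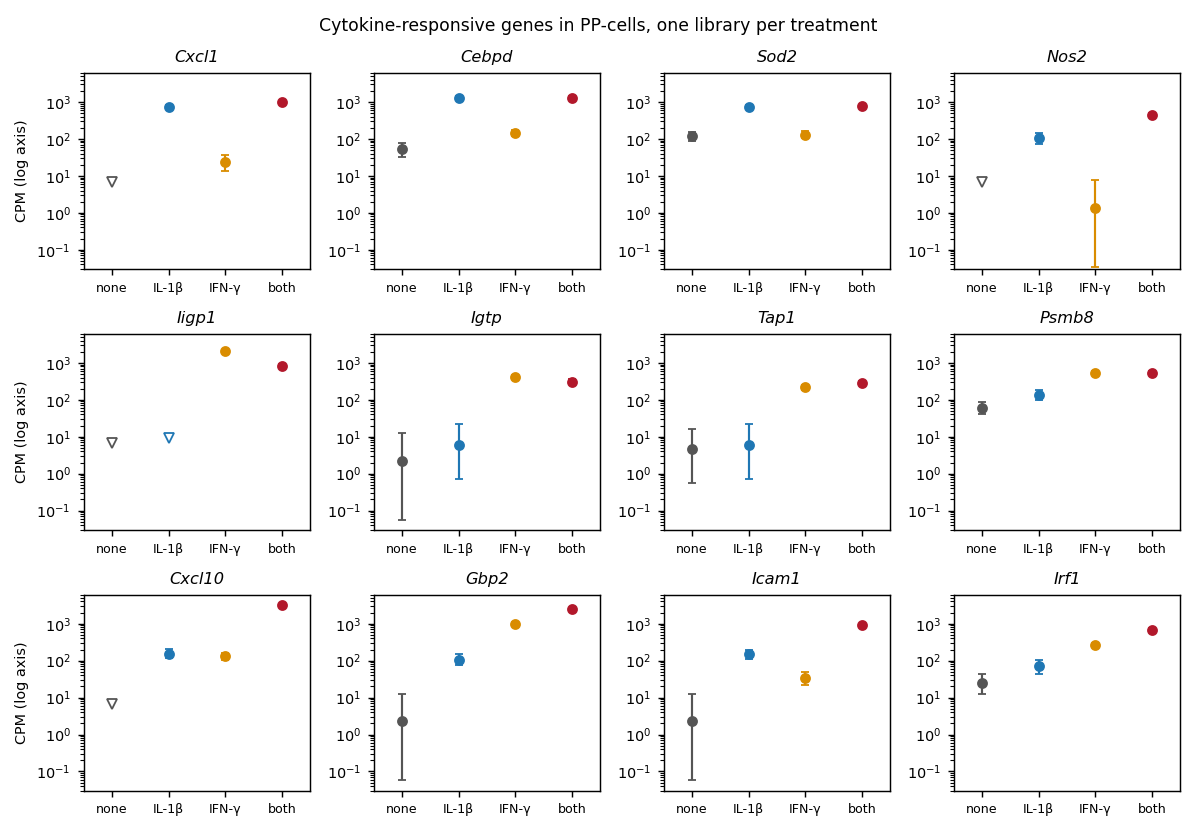
CPM of summed UMIs of PP-cells on a log axis for 12 genes in the 4 libraries, with bars for the 95% Poisson interval and open triangles at the 3-UMI floor where no UMI was found. Cxcl1, Cebpd and Sod2 are high in both libraries with IL-1β, Iigp1, Igtp and Tap1 in both with IFN-γ, and Cxcl10, Icam1 and Nos2 are highest with both cytokines, at 3283, 913 and 445 CPM.

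With both cytokines some genes stood far above their level with either alone. Cxcl10 (chr5:92346638-92348889), the chemokine for CXCR3-bearing T cells, stood at 0, 155, 131 and 3283 CPM and was found in 0, 10.9, 5.95 and 75.7% of PP-cells. The combination was 21.2-fold above IL-1β (16.0 to 28.5) and 25-fold above IFN-γ (20.4 to 31.0), and the few cells that carried the single-cytokine signal make these ratios less sure than their intervals. Icam1, the leukocyte adhesion molecule, stood at 2.26, 149, 34.2 and 913 CPM, 6.12-fold above IL-1β (4.57 to 8.37). Nos2 was 4.30-fold above IL-1β (3.01 to 6.34), but 14 of its 34 UMIs under IL-1β came from 1 cell and 79.4% from 3 cells. The ubiquitin ligase gene Neurl3 stood at 0, 131, 28.7 and 841 CPM, 6.43-fold above IL-1β. Gbp5, an activator of inflammasomes, stood at 0, 3.04, 34.2 and 269 CPM, 7.88-fold above IFN-γ (5.16 to 12.5), and Gbp2 was 2.46-fold above it (2.26 to 2.69).

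The Cxcl10 promoter is shown because its upstream bases hold both kinds of letters. Capitals mark the ISRE core, at the left, and 2 matches to GGGNNNTTCC.
Cxcl10 promoter, chr5:92348974-92349113, minus strand: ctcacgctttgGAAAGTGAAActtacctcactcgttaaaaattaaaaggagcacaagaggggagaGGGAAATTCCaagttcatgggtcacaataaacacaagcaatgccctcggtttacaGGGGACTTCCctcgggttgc

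Of the 8 genes leading upward with both cytokines, 6 had a window, with GGGNNNTTCC in 4 and the ISRE core in 3.

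Not every gene behaved like Cxcl10. Cebpd and Sod2 were about as high with IL-1β alone, with ratios of both to IL-1β of 1.03 (0.913 to 1.16) and 1.03 (0.885 to 1.21). Psmb8 and Gbp7 were about as high with IFN-γ alone, both at 0.996 of it. Other genes were lower with both than with 1 cytokine. Iigp1 stood at 0.401 of its IFN-γ level (0.363 to 0.443), Irgm2 at 0.471 (0.329 to 0.665), Igtp at 0.739 (0.615 to 0.887) and Irgm1 at 0.783 (0.673 to 0.909). Mt1 stood at 0.505 of its IL-1β level (0.441 to 0.577), Steap4 at 0.615 (0.481 to 0.787) and Hamp at 0.663 (0.555 to 0.792). The Hamp interval is too narrow, since 3 cells held 56.3% of its UMIs under IL-1β and 55.2% with both. So these 4 immunity-related GTPases lay below their single-cytokine level while the guanylate-binding proteins Gbp2 and Gbp5 lay above it.

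Few interferon-response genes could be counted from their untreated level. None of the 8 guanylate-binding proteins, 1 of 13 antiviral effectors (Isg20) and 2 of 9 STAT, IRF and SOCS genes (Stat3 and Socs3) were at 50 CPM in untreated cells. These 3 genes were higher with both cytokines, where 5.41% of all genes at that level were. None of them was past the fold under IFN-γ alone (1.69% of all genes), and Isg20 and Socs3 were under IL-1β alone (7.02%). The ubiquitin-like modifier gene Isg15 stood at 0, 3.04, 39.7 and 201 CPM. Among the heat shock and immediate early genes, which cells switch on under stress, 7 of 11 were at 50 CPM in untreated cells. Of these, 2 were higher with both cytokines (Hspa1a and Hspb1) and 1 lower (Fos), while under IL-1β none was higher and 3 were lower (Hsph1, Hspb1 and Fos). Among all genes at that level 5.41% were higher and 13.7% lower with both, and 7.02 and 7.77% under IL-1β. Hspa1a, the inducible HSP70, stood at 181, 204, 108 and 657 CPM, and 75 of its 80 untreated UMIs were in 1 cell. By share of cells it was found in 13.9, 10.9, 5.95 and 45.7%. Ddit3, a transcription factor of the endoplasmic reticulum stress response, stood at 24.9, 76.1, 16.4 and 162 CPM, while the immediate early gene Fos stood at 79.2, 12.2, 127 and 23.4 CPM.

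Kcnk16, Fam183b, C1qtnf4 and Cxxc4 were among the 8 genes leading downward with both cytokines. Kcnk16, a potassium channel of islet cells, stood at 163, 42.6, 161 and 21.8 CPM, a ratio of 0.134. Fam183b stood at 181, 67, 153 and 26.5 CPM, and C1qtnf4, a secreted protein, at 113, 30.4, 95.8 and 20.2 CPM. Cxxc4, an inhibitor of Wnt signaling, stood at 118, 45.7, 88.9 and 15.6 CPM. Etv1, described above, stood at 0.257 of untreated (0.175 to 0.370). Of the 17 pan-endocrine genes, 13 were at 50 CPM in untreated cells, and 1 of these was lower under IL-1β and with both cytokines, where 7.77 and 13.7% of all genes at that level were lower. This was Nkx2-2, a transcription factor of the islet lineages, at 56.6, 24.3, 56.1 and 12.5 CPM, with ratios of 0.430 (0.168 to 0.984) and 0.220 (0.0859 to 0.504). None was lower under IFN-γ (2.26% of all genes) and none was higher under any treatment. Genes chosen for their untreated level can seem lower by counting error alone. Isl1 stood at 251, 365, 271 and 126 CPM. The granule genes Chga (2034, 1942, 1754 and 1768 CPM), Chgb (2315, 2636, 2570 and 2154 CPM) and Pcsk2 (1550, 1640, 1510 and 1710 CPM) stayed within 2-fold.

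**Figure D4:**
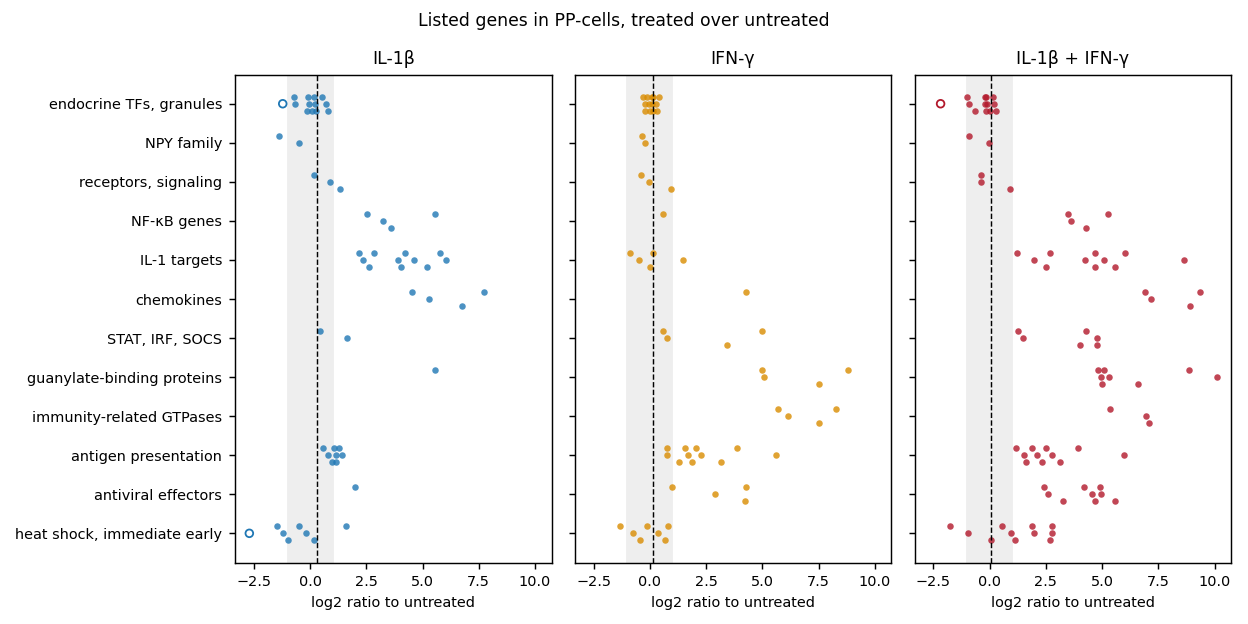
Log2 ratio of CPM to untreated in PP-cells for each listed gene that reached a mean of 50 CPM, in 12 lists and 3 treatments, with a dashed line at the median of all genes that entered (0.31, 0.12 and 0.05) and a grey band within 2-fold. Open circles are genes at 50 CPM in untreated cells whose mean fell short. Among the endocrine genes only Nkx2-2, open, lies below the band, with IL-1β and with both, the IL-1 targets lie above the band with IL-1β or both, and the GTPase families lie above it with IFN-γ or both; genes low in untreated cells could enter only from above.

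Nos2 was compared among endocrine classes, since its product is the nitric oxide that limits β-cell function in cytokine-treated islets. To remove unequal depth, each cell was thinned to 4000 UMIs, which left 35, 38, 76 and 65 PP-cells and dropped 1, 8, 8 and 5. With both cytokines Nos2 was then found in 52.3% of PP-cells (39.5 to 64.9%), 24.3% of α-cells (18.2 to 31.3%), 62.2% of δ-cells (51.4 to 72.2%) and 62.3% of β-cells (59.5 to 65.1%). The thinned interval of PP-cells, Sst-bearing ones included, overlapped those of δ- and β-cells and lay above that of α-cells. Without thinning the shares were 54.3% (41.9 to 66.3%), 35.9% (28.9 to 43.4%), 59.4% (49.5 to 68.9%) and 72.1% (69.4 to 74.6%), so the interval of PP-cells then overlapped that of α-cells and lay below that of β-cells. With IL-1β alone the shares were 13.2, 7.32, 20 and 24.8% in the same order of classes. As a background, Nos2 was counted without thinning in kept cells outside the 4 classes with UMIs of at least 2 of 5 endothelial markers, a set chosen after the values were seen. It was found in 0 of 33 such cells under IL-1β (upper bound 10.6%, median depth 3882 UMIs), against 8 of 46 PP-cells (7.82 to 31.4%, median 6387.5), and in 5 of 23 with both (7.46 to 43.7%, median 10371), against 38 of 70 PP-cells (41.9 to 66.3%, median 9152). These intervals overlap, and endothelial cells can make Nos2 themselves, so the part of free Nos2 RNA in the shares was not tested. Over the 4 libraries PP-cells were above α-cells by 1.61 ± 0.19 on the log2 scale (edgeR adjusted p = 1.4e-05) and below β-cells by -0.63 ± 0.16 (adjusted p = 0.0048), and their difference from δ-cells was -0.03 ± 0.17 (adjusted p = 0.95). These values rest on the libraries with IL-1β, since no untreated cell of the 4 classes had Nos2 and under IFN-γ only 1 PP-, 1 α-, 0 δ- and 7 β-cells did. The call against α-cells was lost with DESeq2, at 1.24 ± 0.68 (adjusted p = 0.55).

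Between the Sst-bearing PP-cells and the others, the intervals of the share with Nos2 overlapped. With both cytokines 14 of 19 Sst-bearing cells had Nos2 (73.7%, 48.8 to 90.9%), at 865 CPM, against 24 of 51 others (47.1%, 32.9 to 61.5%), at 333 CPM. Under IL-1β alone 0 of 9 had it, against 8 of 37 others (9.83 to 38.2%). Without thinning, the both-cytokine interval of the 51 others overlapped that of α-cells (28.9 to 43.4%). With both cytokines Cxcl10 was found in 18 of 19 Sst-bearing cells and 35 of 51 others (68.6%), at 5787 and 2615 CPM. The 38 PP-cells with Nos2 in that library and the 32 without it had similar median depths of 9318 and 8693 UMIs. Gbp5 was found in 89.5% of the former and 43.8% of the latter, Icam1 in 92.1 and 59.4%, Defb1 in 86.8 and 43.8%, Iigp1 in 92.1 and 71.9%, Hspa1a in 55.3 and 34.4%, and Cxcl10 in 84.2 and 65.6%. By level Iigp1 was nearly alike, at 850 and 832 CPM. For PP-cells with Sst under 0.5% Cxcl10 was found in 18 of 24 cells with Nos2 and 17 of 27 without, but stood lower in the cells with Nos2, at 2490 against 2761 CPM. Hspa1a was found there in 45.8% (25.6 to 67.2%) and 33.3% (16.5 to 54.0%). Its intervals overlapped, as they did among all PP-cells (38.3 to 71.4% and 18.6 to 53.2%). These shares describe cells of 1 library and have no replicate.

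Shares for other response genes are given without a background share, so their order among the classes is a description only. Cxcl10, with both cytokines and after thinning, was found in 70.8% of PP-cells, 68.9% of α-cells, 86.7% of δ-cells and 78.4% of β-cells (75.7, 75.7, 86.8 and 84% without thinning). Icam1 was found in 73.8, 76.8, 85.6 and 57.5%. For Gbp2 under IL-1β alone PP-cells had 26.3% (13.4 to 43.1%), with α-cells at 11.0%, δ-cells at 15.8% (9.81 to 23.6%) and β-cells at 51.6% (48.4 to 54.8%). Its interval overlapped those of α- and δ-cells and lay below that of β-cells. Under IFN-γ it was found in 88.2, 72.8, 82.9 and 77% of PP-, α-, δ- and β-cells, and Iigp1 in 92.1, 81.6, 70.3 and 83.3%.

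**Figure D5:**
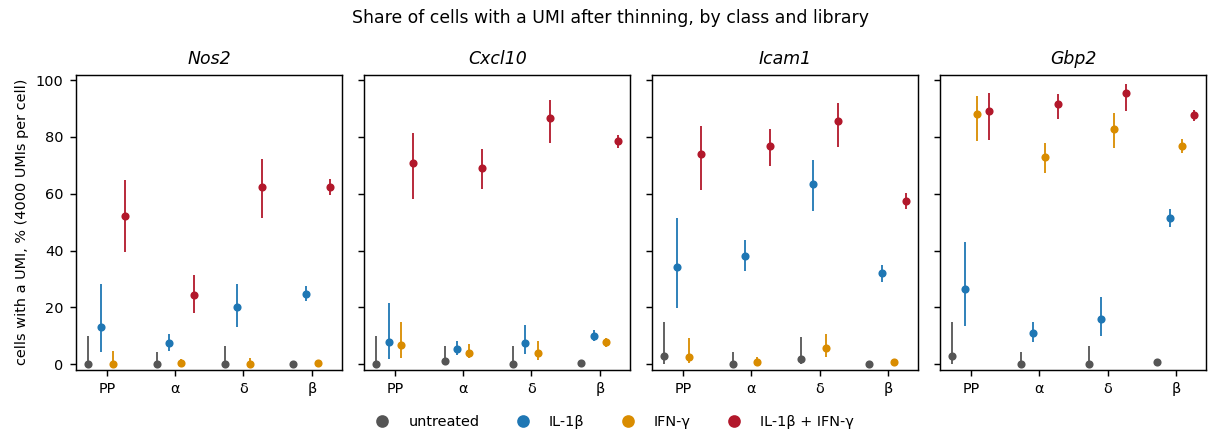
Percent of PP-, α-, δ- and β-cells with at least 1 UMI of Nos2, Cxcl10, Icam1 or Gbp2 in each library after thinning to 4000 UMIs, with exact 95% binomial bars. With both cytokines Nos2 is found in 52.3% of PP-cells, Sst-bearing ones included, above the 24.3% of α-cells. For Gbp2 under IL-1β alone PP-cells, at 26.3%, lie below the 51.6% of β-cells.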

How the data were processed

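Single-cell UMI counts per gene were deposited by the authors as 1 matrix per library, covering 31053 genes. The submitters' processing notes name Cell Ranger and mm10, and the matrix headers give software version 3.0.0. The labels name the v2 chemistry and the study's methods the v3 chemistry of the 3′ kit. The reads were not realigned here. No source used here says how reads of overlapping genes were shared out.

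Barcodes were filtered, classed and summed in Python 3.11.15 (numpy 2.4.6, scipy 1.17.1). α- and δ-cells needed at least 1% Gcg or Sst as the leading hormone with insulin under 2%, and β-cells at least 10% insulin with the other hormones under 1%. The insulin limit removed 97 candidate PP-cells. Doublets were treated by the gene and insulin limits: Scrublet (scanpy 1.11.5) marked 12 of 12571 barcodes (0.0955%) and no PP-cell, too few to have worked, so the alternative without its doublets was not run. Sums per class and library were tested with edgeR 4.0.16 (R 4.3.3; filterByExpr, TMM, quasi-likelihood) with the library as a block, since the classes of a library share islets, treatment and droplets. Per the study's methods the islets of several mice were pooled before the treatments, so libraries are not separate animals and p-values measure the spread between these 4 libraries. DESeq2 1.42.0 was an alternative. Shares have exact binomial, CPM exact Poisson and ratios exact conditional binomial 95% intervals. A count of 0 was set to 3 UMIs over the group in a ratio.

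Named genes were the given markers, all genes of 12 lists, the 12 genes at most each way that differed from all 3 classes, and per treatment the 8 each way with the ratio bound farthest from 1, found in at least 3 cells and 10% of cells of the higher library, without hormone, mitochondrial, ribosomal and other-cell marker genes. Genes compared between single cytokines and both, and those split by Nos2, come from the lists. Members, lists and rules were chosen with earlier results of these data known. Positions are from GENCODE on GRCm38. Some genes named by these rules are not reported here. Scripts were tested on simulated data.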

Additional observations from a re-analysis of the deposited data

How the results depend on the processing

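Shares of PP-cells rest on the hormone limits: 3.16% of kept cells became 2.64% with a Ppy minimum of 5%, 2.45% with Sst under 0.5% and 1.95% with Gcg and Sst both under 0.5%. The last pair of settings was chosen after seeing the data. With DESeq2, 121 genes were higher and 141 lower than in α-cells, 109 and 152 than in δ-cells, and 966 were lower than in β-cells. With no replicate block the counts were 12 and 10, 31 and 44, and 441 and 445. With no filter on low counts 590 genes were lower than in α-cells. Leaving out 1 library at a time gave 126 to 259 higher and 137 to 299 lower genes against α-cells, 161 to 267 and 220 to 359 against δ-cells, and 891 to 1225 and 1106 to 1414 against β-cells. The lowest counts against α- and δ-cells came without the IFN-γ library.

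Counts past the fold, given here as higher and lower, moved with several settings. A fold of 3 gave 156 and 30 for IL-1β, 50 and 4 for IFN-γ, and 182 and 57 for both cytokines. A minimum of 100 CPM gave 149 and 27, 44 and 6, and 153 and 40, and a minimum of 20 CPM gave 898 and 367, 386 and 138, and 661 and 579. Lower counts were 332, 107 and 468 with hormone genes left out of the totals. Thinning gave 216 lower for IL-1β, 178 higher and 110 lower for IFN-γ, and 325 lower for both. For IFN-γ, 63 were lower with equal weight per cell and 6 with no upper gene limit. For the 48 named ratios over 10 settings, 423 of 480 values stayed inside the counting interval, 57 left it (23 of them on thinning) and 0 reversed. Depth limits the rest: a gene under 3 UMIs, between 4.10 and 9.13 CPM in PP-cells, could not be told from absent.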
